A study of Cicer arietinum with 8 samples.

Results

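Roots of a salinity tolerant (ST) and a salinity sensitive (SS) chickpea genotype grown without salt were compared at 20225 loci, 65.9% of the 30692 loci of the deposited expression table. A locus was included when its FPKM (fragments mapped to a transcript, scaled to its length and to the depth of the library) was at least 1 in SS control or in ST control. SS is the genotype ICCV2 and ST the genotype JG62, and both were grown as seedlings in a growth chamber. Control plants received water without added salt, and their roots were taken at an age of 18 days by the sample labels, whereas the series' design text says 17. The stressed groups, used here only for reference, were given 80 mM NaCl on alternate days for 6 days from an age of 12 days and were harvested at the same age. RNA-seq with single-end reads of 49 bp was made from 2 libraries in each of the 4 groups, and the authors combined both libraries of a group into 1 FPKM value per locus. No spread between libraries is therefore available, no difference below has a replicate check or a test, and the depth behind each value is unknown. The paper itself reports differentially expressed genes between the genotypes under control conditions, and the counts below are not that list. The tissue field of the labels reads "salinity" while the source is given as root, and since the table names genes only by Ca_ number or locus number, no root marker could be matched to check the tissue.

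Genotypes of a crop species carry different alleles of many genes, and differences in transcript level between them can be present before any treatment is given. In a comparison of salt tolerant with salt sensitive plants, the unstressed roots give the starting level from which each genotype responds. The root takes up water and mineral ions and is the organ in first contact with saline soil. Among the genes described here are homologs of transporters of metals, organic acids and phosphate, of transcription factors, and of enzymes of lipid and inositol metabolism. In bulk root RNA, fewer cells of a type and less RNA per cell cannot be told apart.

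The part of the transcriptome that could be compared was similar in extent in both genotypes. Of the 20225 loci, 19295 had FPKM of at least 1 in both controls, 446 in SS control only and 484 in ST control only. The median FPKM over all of them was 16.0 in SS control against 15.8 in ST control, with quartiles of 5.72 and 41.4 in SS control and of 5.91 and 40.1 in ST control. The summed FPKM of ST control was 0.996 times that of SS control. FPKM is scaled to the depth of the library, so close totals do not compare the amounts of RNA. At the lower limit, Ca_22921 was included with FPKM 1.0004 in SS control and 0.568 in ST control, and Ca_04905 was left out with a listed 0 and 0.9998. Of the loci left out, 2962 were under FPKM 1 in both controls but above 0 in at least 1 of them, and 7505 were listed at 0 in both.

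On the deposited scale, most loci differed little between the unstressed genotypes, and the differences were balanced in direction. Such a balance depends on the scaling of each column to depth. The median log2 ratio of ST control to SS control was -0.01 over the 19295 loci that reached FPKM 1 in both, and its quartiles were -0.19 and 0.18. The median size of the ratio, taken either way, was 1.14-fold. A locus was called differing when its higher control value was at least 1.5 times the lower one, and loci listed at 0 in 1 control were counted as differing without a fold. On this rule 3320 loci differed, 16.4% of those compared, with 1663 higher (8.22%) and 1657 lower (8.19%) in ST control. The median log2 ratio was 0.89 over the 1578 higher loci and -0.89 over the 1552 lower loci that were above 0 in both controls. The split of 50.1% higher became 53.8% when the columns were scaled to a common upper quartile. No source states that the SS and ST columns were scaled together, so a difference close to 1.5-fold depends on that scaling, and 945 loci lay between 1.4-fold and 1.5-fold against 614 between 1.5-fold and 1.6-fold.

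**Figure D1:**
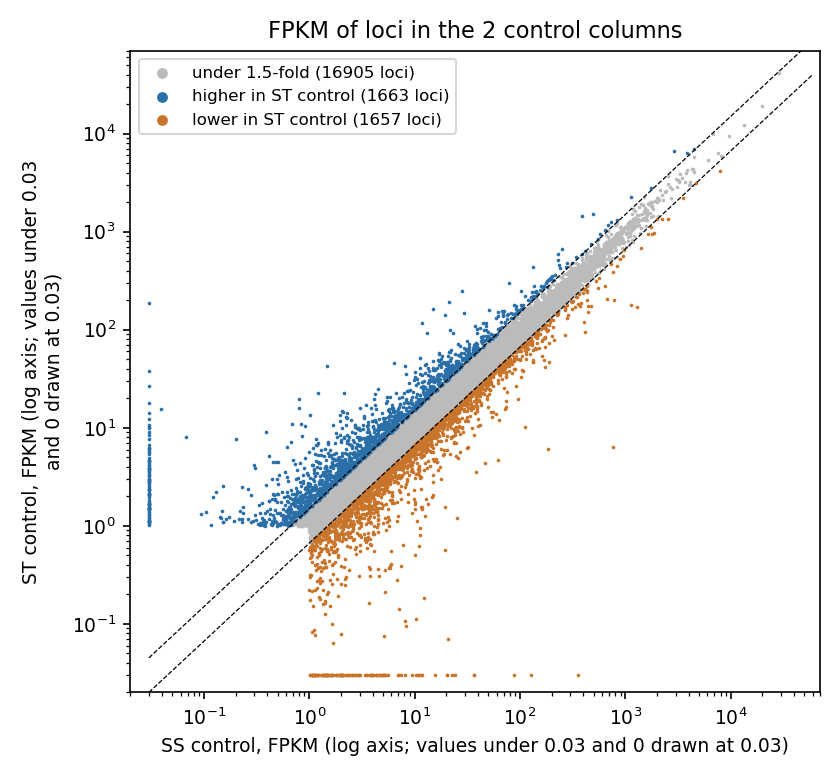
FPKM in SS control (horizontal, log axis) and ST control (vertical, log axis) for the 20225 loci, 1 point per locus, with dashed lines at 1.5-fold either way and with a listed 0 drawn at the edge. The 1663 higher and 1657 lower loci spread widest at low FPKM, and the loci along the edges are the 190 listed at 0 in 1 control.

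Sorted by size of the ratio, 13415 loci (66.3%) had a higher control value less than 25% above the lower one, and 3490 (17.3%) a value from 25% above to under 1.5-fold. In the class from 1.5-fold to under 2-fold there were 1862 loci, of which 942 were higher in ST control. The class from 2-fold to under 4-fold held 992 loci, 515 of them higher in ST control. From 4-fold to under 10-fold there were 206 loci, with 95 higher and 111 lower in ST control. At 10-fold and over there were 70 loci, 26 toward ST and 44 toward SS, and a further 190 were listed at 0 in 1 control. The median of the mean control FPKM was 20.5 in the closest class, less than 25% apart, 7.43 from 1.5-fold to under 2-fold, 4.55 from 2-fold to under 4-fold, 2.59 from 4-fold to under 10-fold and 3.79 at 10-fold and over. Part of this order is fixed by the inclusion rule, because a locus with 1 control under FPKM 1 enters only through the other. Over loci with a mean of at least 1, where the rule leaves no locus out, the same medians were 20.5, 7.93, 5.37, 3.89 and 4.14.

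The share of loci that differed was highest among weakly expressed loci. At a mean control FPKM under 2, 49.8% of 1633 loci differed at least 1.5-fold, but the inclusion rule forces part of this share, since each of the 158 loci with a mean under 0.833 could enter only by differing. At a mean of 1 to under 2, which the rule leaves complete, 41.9% of 1287 loci differed. The share was 22.8% of 5935 loci from FPKM 2 to under 10 and 9.33% of 8401 loci from 10 to under 50. Above that level it was slightly lower, at 8.63% of 3118 loci from 50 to under 200 and 8.79% of 1138 loci at 200 and over. At a 2-fold threshold, which 7.21% of all loci compared reached, the same 5 shares were 29.9%, 10.1%, 3.24%, 2.31% and 2.37%.

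The spread of the ratio followed the same course. The interquartile range of the log2 ratio of the controls was 0.89 at a mean FPKM of 1 to under 2, 0.53 from 2 to under 10, 0.32 from 10 to under 50, 0.29 from 50 to under 200 and 0.32 at 200 and over. For the same loci, the log2 ratio of salt to control within the SS genotype had interquartile ranges from 0.46 at a mean of 2 to under 10 to 0.22 in the highest class, and within the ST genotype from 0.50 to 0.27. These comparisons share a control column with that of the genotypes, so the values are only set side by side. How much of the spread at low FPKM comes from the number of reads was not tested, since the files hold no counts.

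**Figure D2:**
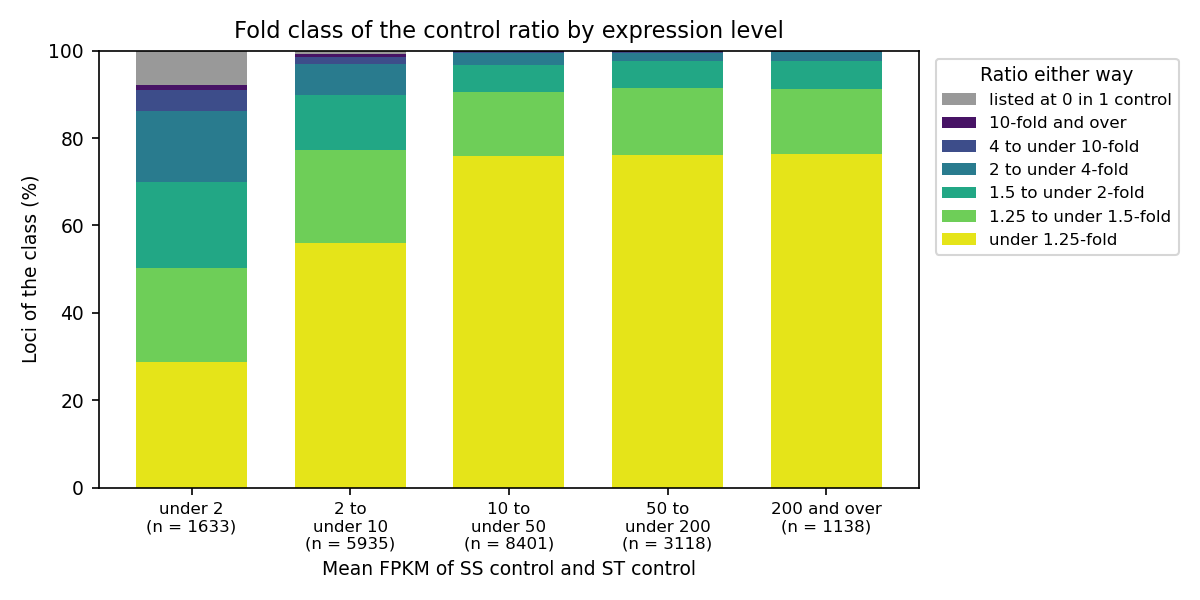
Share of loci (vertical, percent) in each class of the ratio between ST control and SS control, taken either way, for 5 classes of the mean control FPKM (horizontal, with the number of loci). The share of loci less than 25% apart was 28.8% in the lowest class, where the inclusion rule removes close pairs under FPKM 1, and between 75.9% and 76.4% in the 3 classes from FPKM 10 upward.

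The direction also moved with the level. Among the differing loci, 53.6% were higher in ST control at a mean FPKM under 2 and 52.1% from 2 to under 10, against 47.3% from 10 to under 50, 40.1% from 50 to under 200 and 43.0% at 200 and over. At a mean FPKM of 50 to under 200 this corresponds to 108 higher and 161 lower loci, and at 200 and over to 43 higher and 57 lower loci. With upper-quartile scaling the 5 shares were 56.0%, 55.4%, 51.8%, 46.0% and 49.0%, so the lower loci were the larger part from FPKM 50 upward under both scalings, whereas the direction from 10 to under 50 flipped. Differing loci held 10.2% of the summed FPKM of SS control and 9.63% of that of ST control, and loci listed at 0 in either control held 0.0806% and 0.0424%.

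Strong differences at abundant transcripts were few. At a mean FPKM of 200 and over, 4 of 1138 loci (0.351%) differed at least 4-fold, and all were lower in ST control. The share at least 4-fold apart or listed at 0 in 1 control was 0.512% from FPKM 10 to under 50. Ca_03918 had FPKM 414 in SS control and 95.2 in ST control, and 425 and 89.7 in the stressed groups of the same genotypes. XLOC_026480, a locus with no gene name, had 1130 in SS control and 180 in ST control, and 1186 and 148 under stress. In both of these loci the stressed columns repeated the difference of the controls. The other 2 did not. Ca_14770 had 769 in SS control and 6.34 in ST control, but 504 and 636 in the stressed columns. XLOC_000008 had 1295 and 169 in the controls, and a listed 0 in SS against 1582 in ST under stress. At Ca_14770 the ST control column alone was low, and at XLOC_000008 the order of the genotypes was turned. Ca_03918 and XLOC_026480 were picked after their values were seen.

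At a mean FPKM of 50 to under 200, 16 of 3118 loci (0.513%) differed at least 4-fold or were at 0 in 1 control. Of these 16, 7 were lower in ST control and 6 had no gene name, beside 242 of the 3118 without one. Some of the clearest differences with a gene name were toward ST. Ca_11821 had FPKM 28.2 in SS control and 246 in ST control, an 8.72-fold difference, with 35.4 and 299 under stress. Ca_14037 had 14.9 in SS control and 163 in ST control, 11.0-fold higher, with 14.2 and 168 under stress. Ca_10545 had 11.8 in SS control and 117 in ST control, 9.94-fold higher, with 8.56 and 122 under stress. In these 3 loci, picked after their values were seen, both ST columns lay far above both SS columns. Toward SS, Ca_16743, picked in the same way, had 174 in SS control and 41.9 in ST control, with 119 and 32.7 under stress.

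By the rule fixed for naming loci, the most abundant differing transcripts showed small ratios. Those with the highest mean control FPKM toward ST were Ca_12726, with 4456 in SS control and 6930 in ST control, Ca_21058, with 3815 and 6321, and XLOC_027876, with 2925 and 6613. Their ratios were 1.56-fold, 1.66-fold and 2.26-fold. Under stress the ratio of XLOC_027876 was 1.80-fold in the same direction, while those of Ca_12726 (1.23-fold) and Ca_21058 (1.43-fold) were below 1.5-fold. Toward SS they were Ca_12502, with 7893 in SS control and 4123 in ST control, Ca_14568, with 4720 and 3110, and Ca_25936, with 3494 and 2200. Their ratios of 1.91-fold, 1.52-fold and 1.59-fold were 1.29-fold, 1.30-fold and 1.30-fold under stress, each in the same direction. At the other end, the steadiest transcripts at a mean FPKM of 200 and over were Ca_21471 (904 in both controls), Ca_23676 (243 in both) and Ca_16788 (382 in both). Their equality in the controls is a description of 2 columns, and in the stressed columns Ca_23676 had 308 in SS and 212 in ST.

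Among loci above 0 in both controls, those furthest toward ST, ranked by log2(FPKM + 1), were Ca_23848 and 3 loci without a gene name. Ca_23848 had FPKM 1.47 in SS control and 42.5 in ST control, a 28.9-fold difference, with 2.60 and 37.3 under stress. XLOC_030444 had 0.0388 in SS control and 15.6 in ST control, with 0.0450 and 11.7 under stress. XLOC_030116 had 1.21 and 22.5 in the controls and 0.416 and 7.42 under stress. At these 3 loci both ST columns were above both SS columns. XLOC_015951 went the same way in the controls, with 0.798 and 19.5, but the stressed columns held 2.87 and 3.74. The SS control values of these 4 loci lie near or below FPKM 1, so the size of their ratios rests on weakly measured values.

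Toward SS, the same ranking gave Ca_14770, described above, Ca_13027 and 2 loci without a gene name. Ca_13027 had FPKM 19.3 in SS control and 0.564 in ST control, a 34.3-fold difference, and 18.5 and 0.485 under stress. XLOC_026452 had 20.8 and 0.0696 in the controls, and 23.4 and a listed 0 under stress. XLOC_023456 had 185 in SS control and 6.10 in ST control, and 160 and 57.2 under stress. Apart from Ca_14770, these loci were lower in both ST columns than in both SS columns. Ca_12697, picked after its values were seen, showed the same pattern with 12.2 and 0.183 in the controls and 8.77 and 0.103 under stress. The ST control values of Ca_13027, XLOC_026452 and Ca_12697 lie below FPKM 1, so the size of their ratios also rests on weakly measured values.

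Loci listed at 0 in 1 control numbered 190, of which 85 lacked a value above 0 in SS and 105 in ST. Most were weakly expressed in the other genotype, with a median FPKM of 2.60 in ST control for the first set and of 2.36 in SS control for the second. Only 8 of the first and 15 of the second reached FPKM 10. A gene name was absent at 26 of the 85 and at 44 of the 105, beside 2776 of all 20225 loci compared. The stressed columns, which come from other libraries, allow a partial check of these zeros. They were mapped on the same Kabuli genome, so a zero from a mapping difference between the genotypes would recur in them. Such a difference was not tested. Of the 85 loci, 59 were also listed at 0 in SS salinity stress, 20 of them at 0 in both stressed columns. In all, 33 of the 85 (38.8%) were at 0 in both SS columns and at FPKM 1 or more in both ST columns. Of the 105 loci, 51 were also at 0 in ST salinity stress, 19 of them at 0 in both stressed columns. In all, 23 of the 105 (21.9%) were at 0 in both ST columns and at 1 or more in both SS columns. A locus at 0 in both stressed columns shows no genotype difference there. The same shares over all loci compared are not given here. Conversely, 14 of the 85 and 31 of the 105 reached FPKM 1 in the stressed column of the genotype whose control was at 0, so that a listed 0 was often not repeated.

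The strongest of these loci toward ST were without a gene name. XLOC_026481 was listed at 0 in both SS columns and reached FPKM 189 in ST plants without salt and 338 in stressed ST plants. XLOC_026321 was at 0 in both SS columns and had 37.6 and 23.1 in the ST columns. XLOC_018595 was at 0 in both SS columns and had 26.6 and 21.1 in the ST columns. All 3 thus repeated in libraries that the control comparison did not use. XLOC_026481 carries the next locus number after XLOC_026480, whose FPKM was lower in ST, so a pair of consecutive loci differed in opposite directions.

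Toward SS, XLOC_008784 had FPKM 127 and 133 in the SS columns and was at 0 in both ST columns. Ca_23991 had 358 in SS control and a listed 0 in ST control, but 426 and 55.4 in the stressed columns. XLOC_026659 had 88.3 and a listed 0 in the controls, and 63.4 and 7.98 under stress. For the last 2 loci the ST transcript was listed under stress at a level 7.69-fold and 7.94-fold below that of SS, so their zero in ST control was not repeated although the direction was.

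To see whether the differences between unstressed genotypes recur, the ratio of ST salinity stress to SS salinity stress was taken at the same loci. The stressed libraries are separate from the control libraries, but they also differ from them by treatment. They are therefore not replicates of the controls. Reads of all groups were mapped on the same Kabuli genome, so a difference in mapping between the genotypes would also recur. Such a difference was not tested. Between the stressed groups, 17.6% of 20214 loci differed at least 1.5-fold. Of the 3320 loci that differed between the controls, 1422 (42.8%) differed at least 1.5-fold in the same direction under stress. A further 972 had the same direction below 1.5-fold, 449 the opposite direction below 1.5-fold and 248 (7.47%) the opposite direction at 1.5-fold or more, and 229 were under FPKM 1 in both stressed columns. Of the 16905 loci that did not differ between the controls, 1124 (6.65%) were at least 1.5-fold higher and 552 (3.27%) at least 1.5-fold lower in ST under stress.

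The recurrence differed with direction, and so did the share of all loci that differed under stress. Of the 1663 loci higher in ST control, 814 (48.9%) were again at least 1.5-fold higher under stress, against 11.0% of all loci compared between the stressed groups. Of the 1657 loci lower in ST control, 608 (36.7%) were again at least 1.5-fold lower, against 6.59% of all. With upper-quartile scaling of both pairs of columns, the shares that recurred were 44.8% and 40.4%, so the gap between the directions was smaller. The shares of all loci under that scaling are not given here. The medians of the log2 ratio under stress were 0.62 for the higher and -0.39 for the lower loci, compared with 0.89 and -0.89 in the controls. The loci that did not differ in the controls had a median of 0.04 under stress.

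Recurrence at 1.5-fold or more also went with the size of the control ratio. It was 35.2% for loci from 1.5-fold to under 2-fold, 51.0% from 2-fold to under 4-fold and 57.3% from 4-fold to under 10-fold. At 10-fold and over it was 70.0%, and for loci listed at 0 in 1 control it was 49.5%. The share with the same direction at any size did not rise in this way. In these 5 classes it was 74.1%, 72.6%, 67.0%, 75.7% and 54.7%. Opposite differences of 1.5-fold or more made up 6.55%, 8.97%, 10.7%, 2.86% and 6.84%. By level, recurrence at 1.5-fold or more was 34.8% at a mean control FPKM under 2. There, 209 of 814 differing loci were under FPKM 1 in both stressed columns. Recurrence was 42.6% from 2 to under 10, 49.7% from 10 to under 50, 48.3% from 50 to under 200 and 43.0% at 200 and over. Of the loci of the same 5 classes that did not differ in the controls, 28.4%, 14.8%, 5.96%, 8.11% and 7.51% differed at least 1.5-fold in either direction under stress, so the background was itself highest at low level. The share with the same direction at any size was 51.5% in the lowest class and between 73.8% and 89.6% in the others. Opposite differences of 1.5-fold or more made up 10.6% in the lowest class and 1.86% from FPKM 50 to under 200.

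**Figure D3:**
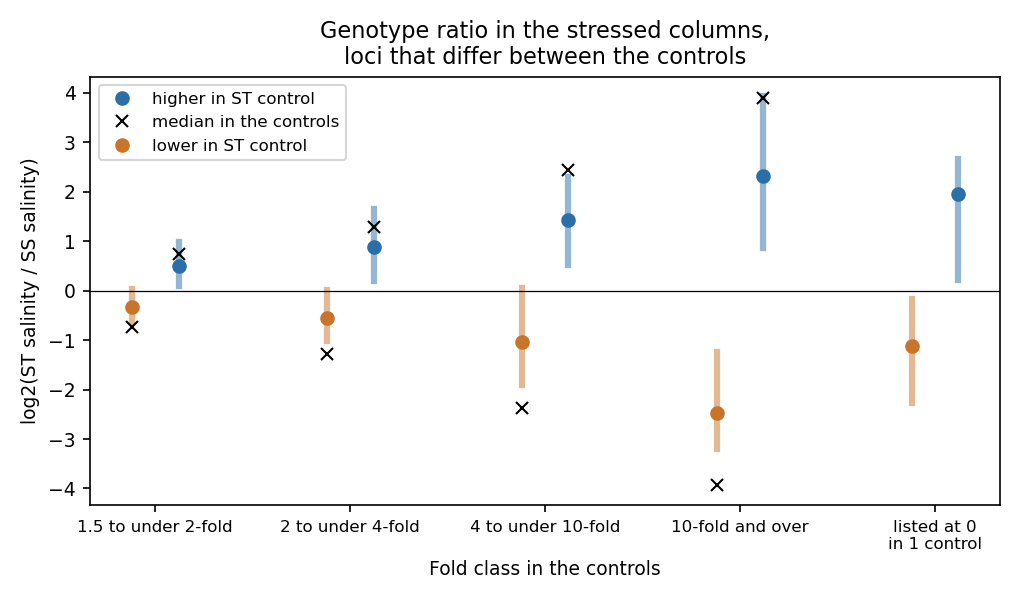
Log2 ratio of ST salinity stress to SS salinity stress (vertical) for loci that differ between the controls, by class of the control ratio (horizontal) and direction, with the median as a point and the quartiles as a bar over loci above 0 in both stressed columns. Crosses give the median log2 ratio in the controls, and in every class of known ratio the stressed median lies on the same side of 0 and nearer to it, as at 2.32 against 3.90 for loci at least 10-fold higher in ST control.

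Of the 466 loci that differed at least 4-fold between the controls or were listed at 0 in 1 of them, 170 differed at least 4-fold in the same direction under stress, where 2.61% of all loci compared between the stressed groups did so in either direction. Of 206 such loci toward ST in the controls, 86 were again at least 4-fold higher, against 1.67% of all, and of 260 toward SS, 84 were again at least 4-fold lower, against 0.935% of all. When the higher column of each pair also had to reach FPKM 10, 42 such loci remained, 19 higher and 23 lower in ST. No gene name was given at 20 of the 42, beside 2776 of all 20225 loci compared.

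The genes that the study names by a Ca_ identifier are the only ones whose likely function is given. They were chosen by the study for their response to salinity or for methylation changes in these plants, so they are no independent evidence on the genotypes. The 17 genes lie at 18 loci, all among those compared, with control FPKM from 2.56 to 436. Of these loci, 1 was at least 1.5-fold higher and 8 were at least 1.5-fold lower in ST control, and 9 did not reach 1.5-fold. That is 50% of the loci, beside the 16.4% of all loci. The median log2 ratio was -0.38, compared with -0.01 over all loci compared that were above 0 in both controls. At 14 of the 18 loci the value was lower in ST control. The stressed groups leaned the other way. Under stress a ratio of 1.5-fold was reached at 11 of the 18 loci, toward ST at 7 and toward SS at 4. Over all loci compared between the stressed groups, such ratios lay toward ST at 11.0% and toward SS at 6.59%.

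Of 4 homologs of transporters and membrane proteins, 3 were at least 1.5-fold lower in ST control. Ca_25099, a homolog of the MATE efflux transporter FRD3, which in Arabidopsis releases citrate into the xylem and keeps iron mobile, had FPKM 26.5 in SS control and 10.4 in ST control. It had 8.89 in SS salinity stress and 1.39 in ST salinity stress, and the 2.55-fold lower level in ST control was 6.40-fold lower under stress. Ca_25099 was thus lower in ST in both conditions. Ca_02410, another homolog of the MATE efflux family, had 7.34 in SS control and 3.95 in ST control, and 3.47 and 7.43 under stress. Its 1.86-fold lower level in ST control stood against a 2.14-fold higher level in ST under stress, so the order of the genotypes was turned. Ca_13970, a homolog of an Arabidopsis transmembrane protein, showed the same turn at high level, with 286 in SS control, 141 in ST control, 169 in SS salinity stress and 286 in ST salinity stress. Ca_12085, a homolog of the phosphate transporter Pht1;5, had 115 and 108 in the controls and 143 and 185 under stress. The ratio at Ca_12085 did not reach 1.5-fold in either condition.

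Enzymes of lipid metabolism showed the widest ratios of this group, in opposite directions. Ca_02137, a homolog of a patatin-related phospholipase A, an enzyme class that frees fatty acids from membrane lipids, had FPKM 11.2 in SS control and 35.7 in ST control. Under stress it had 12.3 in SS and 15.3 in ST, so that a 3.20-fold higher level in ST control went with a ratio under 1.5-fold in the stressed groups. Of the 4 columns, ST control alone was high at Ca_02137. Ca_10731, a lipoxygenase homolog (lipoxygenases add oxygen to polyunsaturated fatty acids, a step toward jasmonates), had 30.1 in SS control and 11.6 in ST control, and 12.8 and 6.73 under stress. It was 2.59-fold lower in ST control and 1.90-fold lower in ST under stress. Ca_09586, whose product resembles inositol-phosphate synthase (MIPS), which makes the precursor of inositol, had 8.94 in SS control and 5.86 in ST control, and 16.6 and 10.3 under stress. Its ratio of 1.53-fold in the controls lay close to the threshold and was 1.61-fold under stress, lower in ST in both.

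Homologs of transcription factors were closer between the unstressed genotypes. Ca_07196, a bHLH homolog, had FPKM 23.4 in SS control and 14.8 in ST control, and 12.8 and 7.60 under stress, 1.58-fold and 1.68-fold lower in ST. Ca_20616, also a bHLH homolog, had 7.56 and 5.97 in the controls and 4.30 and 3.40 under stress, with ratios of 1.27-fold and 1.26-fold. Both bHLH homologs had lower values in ST in each condition, and Ca_20616 did not reach 1.5-fold. Ca_09442, a homolog of WRKY33, which in Arabidopsis acts in defence against fungi, had 52.4 in SS control and 62.6 in ST control, and 21.4 and 80.1 under stress. The genotypes were 1.19-fold apart at Ca_09442 without salt and 3.74-fold apart under stress.

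The remaining genes of this group were close to each other in the controls, except for Ca_20130. Ca_12433, a homolog of the Arabidopsis calcium-dependent nuclease CAN2, had FPKM 27.8 in SS control and 25.7 in ST control. Ca_22105, a homolog of the leucine-rich repeat protein PIRL6, had 45.8 and 41.0. Ca_12185, Ca_13125 and Ca_25894 had 15.8 and 20.6, 3.44 and 2.58, and 2.56 and 3.39. All 5 stayed under 1.5-fold in the controls. Ca_18464, which has no Arabidopsis homolog, shares the locus XLOC_001550 with Ca_18458. XLOC_001550 had 124 and 116 in the controls and 155 and 140 under stress. Ca_20130 is listed at 2 loci, which may share reads. XLOC_009920 had 436 in SS control and 251 in ST control, and XLOC_011723 had 282 and 178, a 1.74-fold and a 1.59-fold lower level in ST control. Under stress both loci had lower values in ST but did not reach 1.5-fold.

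**Figure D4:**
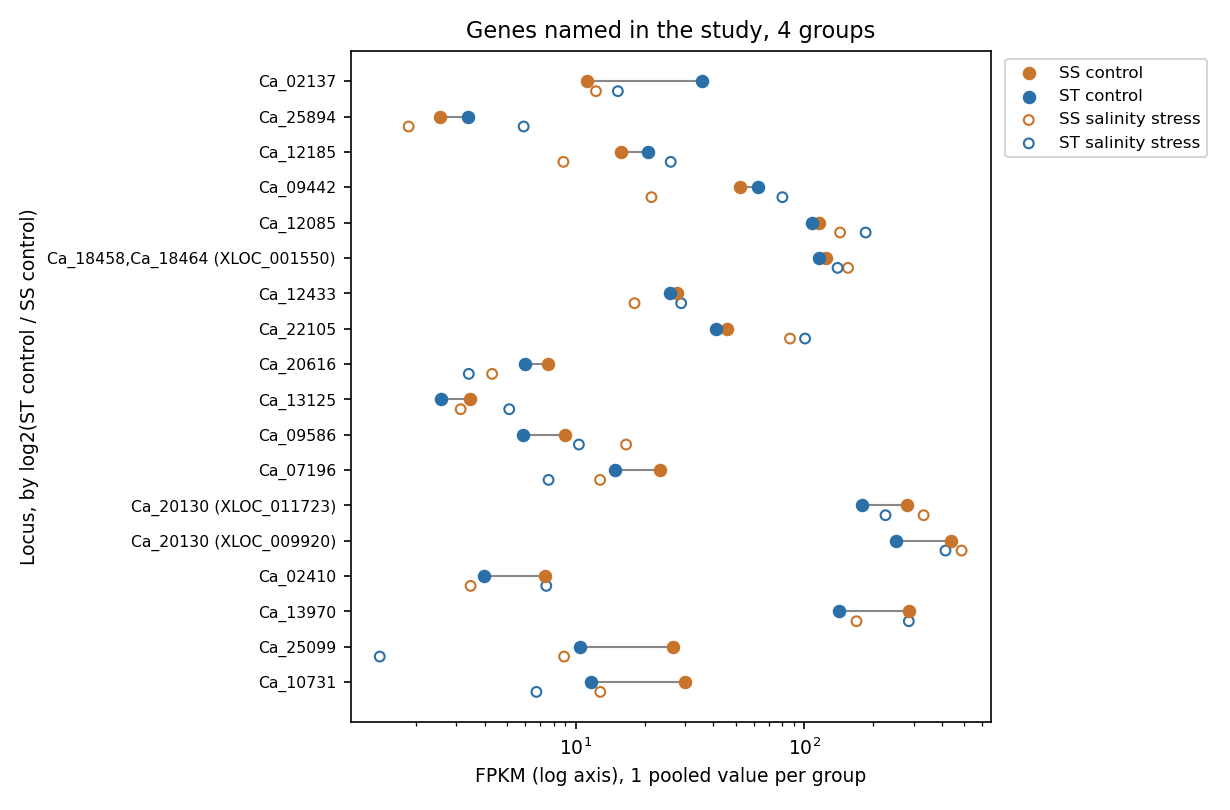
FPKM (horizontal, log axis) of the 18 loci of the 17 genes named in the study, with filled points for SS control and ST control joined by a line and open points for the stressed groups, each a single pooled value. At 14 loci the ST control point lies left of the SS control point. Among these, the open points lie in the reverse order at Ca_13970, Ca_02410, Ca_12085, Ca_12433, Ca_13125 and Ca_22105.

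Loci that carry a locus number but no gene name in the table made up a larger part of the differing loci than of all loci. Of the 2816 such loci in the table, 2776 were compared, against 16897 of 27319 with 1 gene name. The authors' processing included an assembly step. Whether loci without a gene name entered the table through the genotype where they are high was not tested. Of 2776 such loci, 32.5% differed at least 1.5-fold between the controls, compared with 14.0% of 16897 loci with 1 gene name and 9.60% of 552 loci with more than 1. They were also expressed at a lower level, with a median of the mean control FPKM of 7.92 against 17.5 and 31.2. The gap was present at each level. It was 58.6% against 38.3% of loci with 1 gene name at a mean FPKM of 1 to under 2, 37.6% against 18.5% from 2 to under 10, 20.9% against 7.97% from 10 to under 50, 18.2% against 7.83% from 50 to under 200 and 20.3% against 8.31% at 200 and over. The direction differed as well, with 45.1% of the differing loci without a gene name higher in ST control and 52.0% of those with 1 (47.8% and 56.0% with upper-quartile scaling). Under stress, 47.7% of the differing loci without a gene name and 41.5% of those with 1 kept the direction at 1.5-fold or more. The direction was turned at 1.5-fold or more in 11.5% and 6.00%. These shares stand without a background, since the share of each class that differed between the stressed groups is not given here. The share of loci without a gene name was 9.97% in the closest class and 52.9% at 10-fold and over. Of the differing loci, 53 carried more than 1 gene name and 46 carried a name also found at another locus, and for these the FPKM cannot be assigned to 1 gene.

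The table gives no coordinates, but it numbers its loci. Assemblers usually number loci by position, and whether consecutive numbers are neighbours on a strand here was not tested. Differing loci were followed in number by others of the same direction more often than the share over all loci. For 15304 pairs of consecutive numbers with both loci compared, the locus after one that was higher in ST control was also higher in 14.7% of 1229 cases, beside 7.98% over all pairs, and the locus after one that was lower was also lower in 16.4% of 1210 cases, beside 7.96%. A difference in the opposite direction followed in 8.95% and 9.34% of cases. Among loci with 1 gene name alone, the same shares were 11.2% beside 6.90% and 10.2% beside 6.29%. These shares are a description of 2 columns, and how far apart consecutive loci lie is not known.

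In windows of 50 consecutive loci compared, the share differing at least 1.5-fold ranged from 2% to 58% over 404 windows, with a median of 14%. Of 34 windows at 30% or more, 18 consisted to at least 90% of loci without a gene name. How many of all 404 windows did so is not given here, and 2776 of the 20225 loci compared had no gene name. The highest share lay between XLOC_023364 and XLOC_023415, where no locus had a gene name, 20 were lower and 9 were higher in ST control. With loci of 1 gene name alone, the range over 337 windows was 4% to 36%, and 6 windows reached 30%. Loci numbered 25000 and over differed more often, at 21.5% of 1386 loci with 1 gene name compared with 13.3% of 15511 below that number. Their median of the mean control FPKM was 11.5 against 18.2, so a lower level moved with the higher share, and its part in it was not tested. The mark of 25000 was set after the values were seen.

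**Figure D5:**
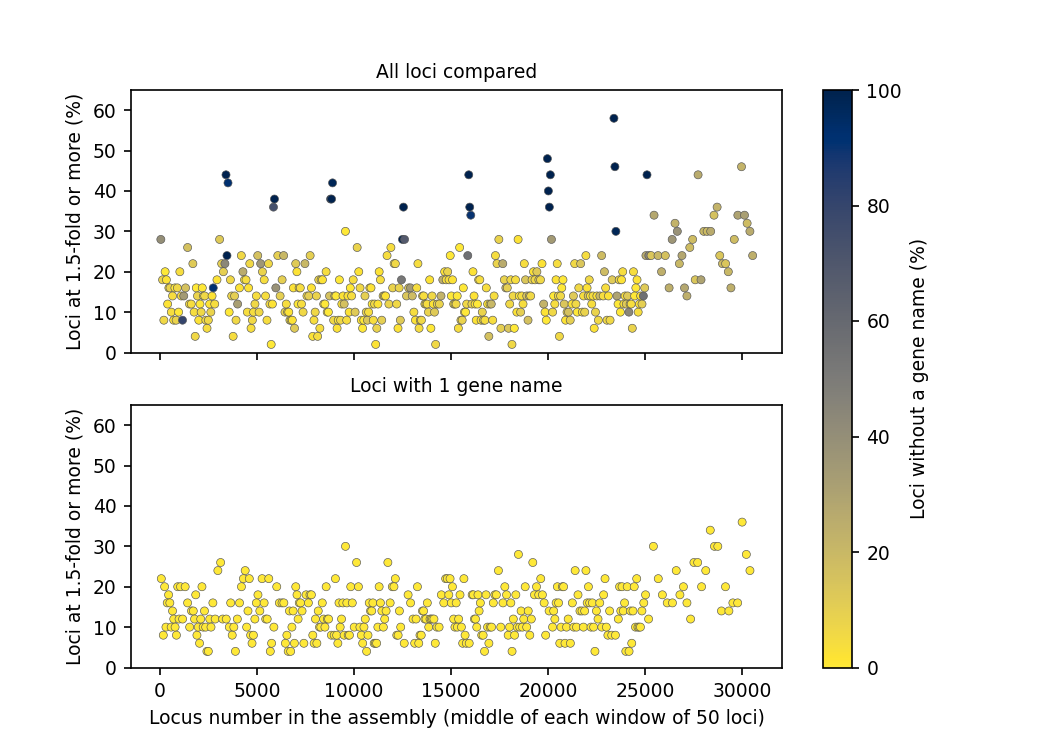
Share of loci differing at least 1.5-fold between the controls (vertical, percent) in windows of 50 consecutive compared loci along the locus numbers of the assembly (horizontal), for all loci and for loci with 1 gene name, shaded by the share without a gene name. The windows above 40% are mostly dark, and with 1 gene name alone no window exceeds 36%.

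Runs of consecutive loci with the same direction were short, and those made up of annotated genes were rare. Of 15 runs of at least 4 consecutive loci, 10 consisted of loci without a gene name and 2 of loci that all had a gene name. Among all 20225 loci compared, 2776 had no gene name. The longest held 7 loci from XLOC_023403 to XLOC_023409, all lower in ST control and all without a gene name. Of these, 3 were lower again by at least 1.5-fold under stress. Apart from XLOC_023409 they were weak, with FPKM of at most 4.47 in SS control. XLOC_023409 had 22.2 in SS control and 7.98 in ST control, but 14.2 and 15.2 under stress. The first of the annotated runs, picked after the values were seen, held 5 genes from Ca_10404 to Ca_10409, each lower in both ST columns than in both SS columns. Ca_10409 had FPKM 645 in SS control, 277 in ST control, 592 in SS salinity stress and 247 in ST salinity stress. Ca_10407 had 91.9, 26.6, 95.0 and 43.6 in the same order, and Ca_10404 had 38.5, 17.9, 39.2 and 19.2. The other members, Ca_10405 and Ca_10408, were weaker, with 3.57 and 1.17, and 9.14 and 5.18, in the controls. The second annotated run held 4 genes that were higher in both ST columns. Ca_10000 had 6.11 in SS control and 15.8 in ST control, Ca_10002 had 11.5 and 26.3, Ca_10004 had 1.78 and 3.07, and Ca_10006 had 9.93 and 16.4. Under stress each of these 4 was again at least 1.5-fold higher in ST.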

How the data were processed

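Root RNA of 2 chickpea genotypes was sequenced by the authors with 2 libraries in each of 4 groups, described as independent biological replicates. The labels and the paper give filtering with NGS QC Toolkit at a Phred score of 20, mapping with TopHat2 2.1.1 on the Kabuli chickpea genome, assembly with Cufflinks and expression estimates with Cuffdiff, for which the submitters' processing notes give version 2.2.1 and the paper 2.1.1. The deposited values are FPKM, combined by the authors over both libraries of a group, so depth, interval and spread are unknown and no test was made. The scaling between the columns of the genotypes is not given in the sources used here.

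The plain ratio of ST control to SS control was taken for loci with FPKM of at least 1 in either, at the fold threshold of 1.5 of the study's methods. Its p-value threshold could not be applied to pooled values. Level classes used the mean of both controls. A log2(FPKM + 1) scale, with a pseudocount of 1, was used only to rank loci. The members and lists were chosen with earlier results of these data known. Named loci were the genes named in the paper by identifier, the 4 largest differences in each direction with both controls above 0, the 3 highest loci in each direction with a listed 0, the 3 most abundant differing loci in each direction, the 2 largest reversals under stress in each direction and the 3 steadiest abundant loci. The text says where a locus was picked once its values were known.

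Alternatives were pseudocounts of 0.1 and 1, no FPKM minimum or one of 5, scaling by the median ratio or the upper quartile, a threshold of 2-fold, loci with 1 gene name only, level classes from all 4 columns and, added after the values were seen, leaving out loci listed at 0 and limiting the lowest level class to a mean of 1 to under 2. The call of a difference was tested on SS control values with ratios planted at loci of FPKM 2 or more. The scaling of columns and the pairing of consecutive locus numbers were also tested on constructed values. The level classes, listed zeros, recurrence, windows and runs were not tested in this way. Python 3.11.15, pandas 2.3.3, numpy 2.4.6, scipy 1.17.1 and matplotlib 3.10.9 were used. The RefSeq gene table used for names has none of the identifiers of the deposited values, so no gene symbol, position or sequence is given.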

Additional observations from a re-analysis of the deposited data

Results flagged for a closer look

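Between the controls and the stressed groups, 248 loci differed at least 1.5-fold between the genotypes in opposite directions, 105 of them higher and 143 lower in ST control. These were 6.31% of the loci higher and 8.63% of the loci lower in ST control. Of all loci compared under stress, 6.59% were lower and 11.0% higher in ST, shares that include loci which kept their direction. Of the loci that did not differ in the controls, 3.27% were lower and 6.65% higher in ST under stress. The reversed shares lay between these backgrounds. The change of direction was not tested, since each group has 1 pooled value. The 248 loci were weakly expressed, with a median FPKM of 3.80 in the higher control. There, 58.1% of them were under FPKM 5, against 41.0% of all differing loci. Of the 248, 104 had no gene name, beside 902 of the 3320 differing loci.

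Among named loci, the difference of ST from SS on the log2(FPKM + 1) scale was larger under stress than in the controls by 1.67 at Ca_02410 and by 1.77 at Ca_13970, both lower in ST control and higher in ST under stress. The largest turns from lower to higher were 13.56 at XLOC_000008 and 7.23 at Ca_20640. Ca_20640 had FPKM 4.05 in SS control, a listed 0 in ST control and in SS salinity stress, and 28.7 in ST salinity stress. The largest turns from higher to lower were -5.25 at Ca_17198, with FPKM 0.237 and 1.36 in the controls and 43.9 and 1.26 under stress, and -4.27 at Ca_23779, with a listed 0 and 3.22 in the controls and 3.58 and a listed 0 under stress. At XLOC_000008, Ca_20640 and Ca_23779 a listed 0 enters the turn, and none of these directions has a replicate check.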

How the results depend on the processing

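No paired analysis was possible because each group has 1 pooled column, and for the same reason no library could be left out. The 3320 differing loci became 5310 with no FPKM minimum, 1959 with a minimum of 5 and 1458 at 2-fold. The share higher in ST control (50.1%) was 47.9% with a pseudocount of 1 and also with a minimum of 5, 53.8% under upper-quartile scaling and 52.0% with 1 gene name only. The share differing again under stress (42.8%) was 40.3% with no minimum and 39.1% at 2-fold. The 190 loci listed at 0 became 1220 with no minimum, 44 with a minimum of 5 and 120 with 1 gene name only. The median log2 ratio of the controls (-0.01) was -0.020 with a minimum of 5 in both and 0.022 under upper-quartile scaling. At 2-fold the share differing was 29.9%, 10.1%, 3.24%, 2.31% and 2.37% from the lowest to the highest level class, and at 1.5-fold with the lowest class limited to a mean of 1 to under 2, an alternative added after the values were seen, 41.9% in place of 49.8%. With a minimum of 5, 10.03% of loci with 1 gene name and 27.2% of those without one differed. The share of differing loci followed by one of the same direction (15.5%) was 11.8% at 2-fold and 10.7% with 1 gene name only. Of 37 named loci with a ratio, none that was at least 1.5-fold apart changed direction under a pseudocount of 1 or under either scaling, and Ca_21471, equal in both controls, turned sign by less than 0.1 on the log2 scale under both scalings. Ca_09586 dropped below 1.5-fold with the pseudocount and under upper-quartile scaling, and Ca_14568 under the latter. No other alternative, including level classes from all 4 columns and the one without loci listed at 0, which was added after the values were seen, moved a count by over 1.5 times. Without counts, the error of loci at low FPKM is unknown.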
